A study of Raphanus sativus with 9 samples.

Results

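Of 64657 genes counted in leaf and root RNA of radish (Raphanus sativus), 178 genes (0.275%) fell by at least a factor of 2 during vernalization and by at least the same factor again after it. The members were chosen on CPM, a gene's reads as a share of all reads counted on genes in that library, scaled as counts per 1e6 reads. With 0.1 CPM added to each mean, a member had at least 5 before vernalization, at most 50% of that level at the end of the cold, and at most 50% of the cold level after the return to warmth. The rule set aside 3 identifiers beforehand, RsBAT5 and the RsTGG2a pair, of which 1 (RsBAT5) met these limits. Because the measured levels at all time points chose the members, their levels and falls are given as a description, and calls of a test on the same contrasts are counted only beside the share of all genes called. The members were 0.883% of the 20164 genes with at least 5 before vernalization, and 9.16% of the 1944 of those that were at or under 50% of that level at the end of the cold. A list of 94 glucosinolate genes, counted here by the identifiers in the study's supplementary gene table, named 7 of the members (7.45% of that list), and the other 171 carried only an identifier.

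The plants were of cultivar Taebaek and were sampled at 3 time points, each with 3 libraries. Plants before vernalization (BV, labelled NV) were 4 weeks old and had seen no cold. Vernalized plants (V) were 8 weeks old, after 4 weeks in the cold, and plants after vernalization (AV) were 10 weeks old, after 4 weeks of cold and a further 2 weeks of warmth. No plants of 8 or 10 weeks without cold were among these libraries. The study's methods also give the cold room an 8-h light period under sodium light, while plants grew in a greenhouse before and after it. The cold, the plant's age and these light conditions therefore cannot be told apart. The labels give leaf and root as the tissue, and the extraction text speaks of whole seedlings, so how the organs were combined in a library is unclear. In such bulk RNA, fewer cells of a type and less RNA per cell cannot be told apart, and the tissue could not be checked against marker genes because most identifiers carry no name. The libraries held between 21119531 and 27606212 reads on genes. AV replicate 3 differed from AV replicate 2 in 376 of 64657 genes and in 0 of the 178 members, whereas AV replicates 1 and 2 differed in 168 members. Replicate 3 was therefore left out, and AV stands for 2 libraries throughout.

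Glucosinolates are the sulfur-rich defence compounds of the cabbage family. Aliphatic glucosinolates are built from several amino acids, among them methionine. The side chain of methionine is lengthened before cytochromes P450 and later enzymes form the core. In Arabidopsis the SOT17 and SOT18 sulfotransferases carry out the last core step. Side-chain enzymes then change the product. The FMOGS-OX monooxygenases of Arabidopsis oxidize the sulfur of the side chain, and radish GRS1 introduces the double bond that turns glucoerucin into glucoraphasatin, the main glucosinolate of radish. When tissue is damaged, myrosinases (TGG in Arabidopsis) cut glucosinolates to release isothiocyanates and related products.

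RsGRS1 (RSG02297) is the member that the study also followed by RT-qPCR and by chromatin immunoprecipitation for the repressive mark H3K27me3. The paper reports that its expression rose with age in leaf and root of non-vernalized plants, without a marked rise in vernalized plants. Older plants without cold are not among the libraries used here. The study's primers show which stretches of the gene those assays read, and are given 5′ to 3′. In the promoter and at the transcription start site (TSS) the 4 ChIP primers were as follows.
RsGRS1_promoter_F: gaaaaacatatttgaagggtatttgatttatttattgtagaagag
RsGRS1_promoter_R: gtaaggttatttcgaggtggcacaac
RsGRS1_TSS_F: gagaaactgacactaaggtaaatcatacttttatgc
RsGRS1_TSS_R: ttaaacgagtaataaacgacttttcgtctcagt
The gene body pair for ChIP and the RT-qPCR pair overlap, and capitals mark the bases of the forward RT-qPCR primer that the reverse gene body primer carries on the opposite strand.
RsGRS1_Gene body_F: gcgtcaagtctcagatgatgttgggc
RsGRS1_Gene body_R: CCAGGGACAGGAGGAACatcaaacc
RsGRS1_F: GTTCCTCCTGTCCCTGGatg
RsGRS1_R: atgcgctagcaccctatgct
The shared stretch was 17 bases long and opened both primers, so the end of the gene body amplicon of the ChIP assay overlaps the start of the transcript amplicon by that stretch. The chromosome positions of these primers were not analysed here.

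RsGRS1 had 369, 420 and 245 CPM in BV, 149, 174 and 144 CPM in V, and 56.7 and 55.8 CPM in AV. The time points did not overlap, and BV replicate 3 was the lowest BV library, at 62.1% of the mean of BV replicates 1 and 2. The BV mean was 345 ± 90.0 CPM (SD, n = 3), the V mean 156 ± 15.8 CPM (SD, n = 3) and the AV mean 56.3 ± 0.593 CPM (SD, n = 2). RsGRS1 was thus 2.22-fold lower in V than in BV, 2.77-fold lower in AV than in V, and 6.13-fold lower in AV than in BV. It lay close to the limit of the first step, at 45.1% of BV, and no longer met the rule when BV replicate 2 was left out.

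RsFMOGS-OX1-1 (RSG51376), the other side-chain gene among the members, had 21.8, 21.4 and 26.8 CPM in BV, 5.18, 3.22 and 6.57 CPM in V, and 2.07 and 0.855 CPM in AV. Here BV replicate 3 was the highest BV library, and the time points did not overlap. V was 21.4% of BV and AV was 29.3% of V, falls of 4.68-fold and 3.41-fold. It was the only named member that still met the rule when a fall of at least 3 times was asked of each step.

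Both sulfotransferase members fell at each step, by unlike amounts. RsSOT17a (RSG03557) had 54.7, 70.7 and 56.7 CPM in BV, 28.8, 23.4 and 31.8 CPM in V, and 9.94 and 9.84 CPM in AV. RsSOT18c (RSG12631) had 23.4, 23.3 and 23.7 CPM in BV, 8.69, 9.71 and 10.5 CPM in V, and 1.38 and 0.583 CPM in AV. The time points of each gene did not overlap, and the BV libraries of RsSOT18c lay within a narrow range, 23.4 ± 0.217 CPM (SD, n = 3). RsSOT17a was 2.17-fold lower in V than in BV and 2.83-fold lower in AV than in V. RsSOT18c was 2.43-fold lower at the first step and 9.82-fold lower at the second, so the fold was larger after the cold, and its AV level was 4.19% of BV. RsSOT17a no longer met the rule when BV replicate 2 or V replicate 2 was left out.

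The 3 myrosinase members differed in the relative folds of the steps. RsTGG1a (RSG23127) had 681, 710 and 391 CPM in BV, 231, 229.6 and 229.7 CPM in V, and 77.1 and 83.2 CPM in AV. RsTGG1g (RSG48132) had 52.6, 69.5 and 36.4 CPM in BV, 16.5, 21.3 and 17.1 CPM in V, and 5.06 and 8.71 CPM in AV. RsTGG2c (RSG40189) had 46.3, 50.9 and 29.5 CPM in BV, 2.86, 4.55 and 2.11 CPM in V, and 1.34 and 0.855 CPM in AV. In each of them BV replicate 3 was the lowest BV library, and the time points did not overlap. RsTGG1a fell by 2.58-fold and then 2.87-fold, and RsTGG1g by 2.89-fold and then 2.66-fold, so their steps were of similar size. RsTGG2c fell by 13.3-fold in the cold and by 2.89-fold after it, and its AV level was 2.60% of BV, against 13.5% for RsTGG1a and 13.0% for RsTGG1g. The second step of RsTGG2c lay at low levels, with means of 3.17 CPM in V and 1.10 CPM in AV. It was the only named member that no longer met the rule when 1 CPM was added before ratios. BV replicate 3 held 56.2% of the mean of BV replicates 1 and 2 for RsTGG1a, 60.6% for RsTGG2c and 59.6% for RsTGG1g. The myrosinases and the sulfotransferases belong to families with several homologs in the list, and reads that aligned to more than 1 place were not counted on any gene, so the levels of single homologs are uncertain.

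**Figure D1:**
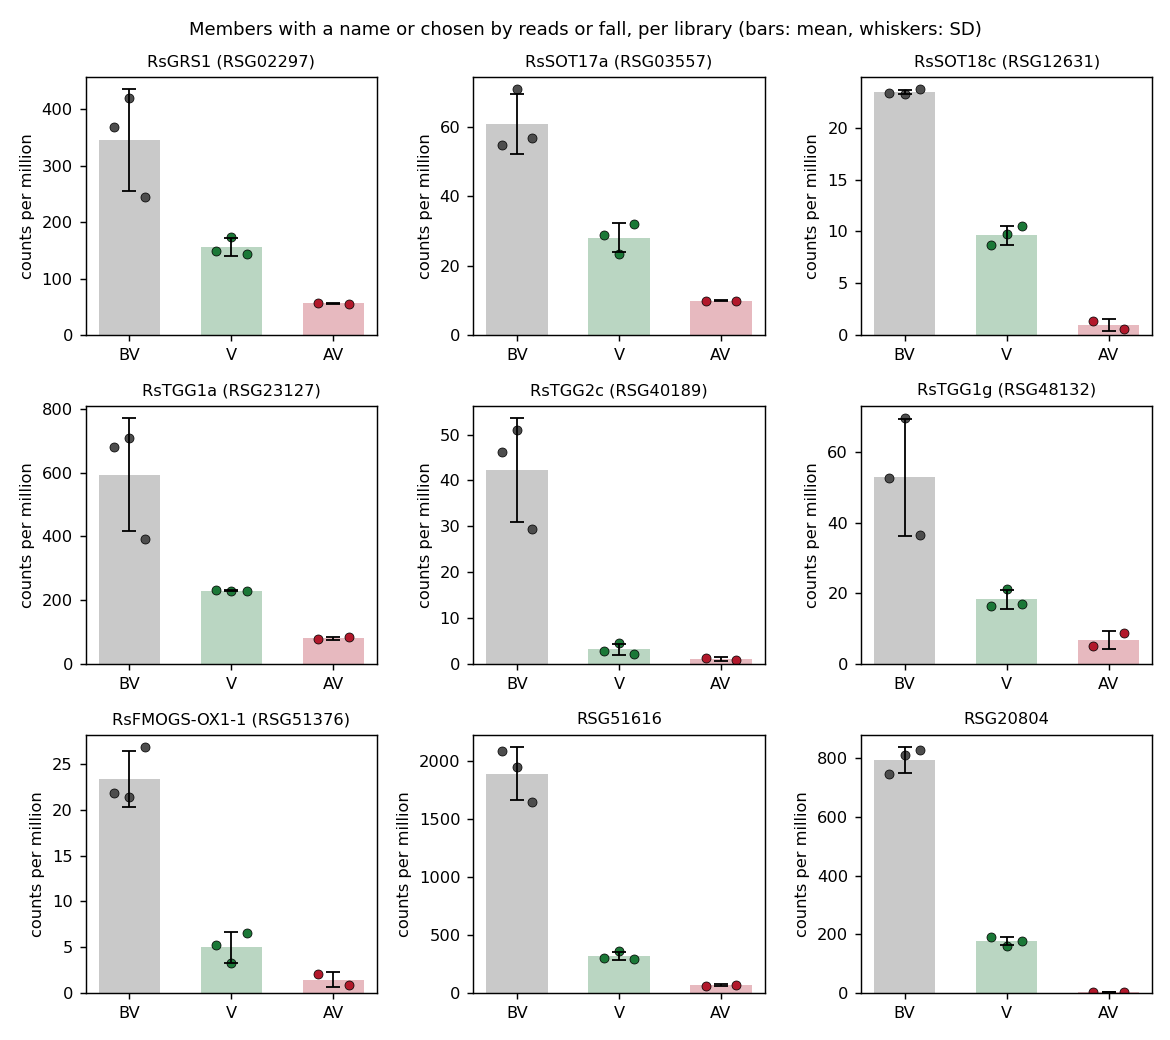
Level of the 7 named members and of 2 members without a name in each library, in CPM on a linear axis from 0, with points for libraries, bars for means and whiskers for the SD over 3 BV, 3 V and 2 AV libraries. In each panel all V libraries lie under all BV libraries and both AV libraries lie under all V libraries, and in RsGRS1 and the 3 RsTGG genes BV replicate 3, the rightmost BV point, is the lowest BV library.

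Among the members without a name, RSG51616 took the most reads before vernalization and RSG20804 fell the most between BV and AV when 0.1 CPM was added to each mean, as in the rule. By the ratio of means alone other members fell more, all of them with AV means under 1 CPM. RSG51616 had 2086, 1943 and 1642 CPM in BV, 302, 362 and 291 CPM in V, and 58.5 and 71.3 CPM in AV, so that V was 16.8% of BV and AV was 20.4% of V. RSG20804 had 745, 810.0 and 828 CPM in BV, 192, 162 and 178 CPM in V, and 2.88 and 1.83 CPM in AV. Neither gene's time points overlapped. RSG20804 was 4.48-fold lower in V than in BV but 75.3-fold lower in AV than in V, and its AV level was 0.296% of BV.

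Across all 178 members, the V level had a median of 30.5% of BV (quartiles 19.3% and 39.0%, lowest 1.03%), and the AV level a median of 30.1% of V (quartiles 16.6% and 40.0%, lowest 0%). These medians are bounded by the rule, which admitted nothing over 50%. Relative to BV, AV had a median of 8.39%, with quartiles of 3.18% and 13.0% and a highest value of 24.0%. At most 1% of the BV level was left in AV in 26 members, 1 to 5% in 40, 5 to 10% in 35, and 10 to 25% in 77. The members ranged widely in level. Their mean in BV ran between 5.20 and 1890 CPM with a median of 21.7 CPM, and the median was 5.70 CPM in V and 1.46 CPM in AV. The share left in AV varied little with the starting level, with medians of 8.77% in the 44 members under 10 CPM in BV, 8.28% in the 102 members between 10 and 100 CPM, and 10.1% in the 32 members above that.

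With 0.1 CPM added to each mean, the first step was the larger in 94 members and the second in 84. By the ratio of means alone, further members had the larger second step, among them RSG03061 (10.5-fold, then 50.9-fold). The split thus depended on the added value where AV was near 0. Also with 0.1 CPM added, the folds of the steps lay within a factor of 1.5 of each other in 94 members. On that measure the fold of the first step was at least 4 times that of the second in 14 members, and the reverse held in 10. By the ratio of means, each step left at most 25% of the level before it in 36 members. Of the named members, RsTGG2c was among the 14. RsSOT18c had the larger fold at the second step but, with 0.1 CPM added, was not among the 10.

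**Figure D2:**
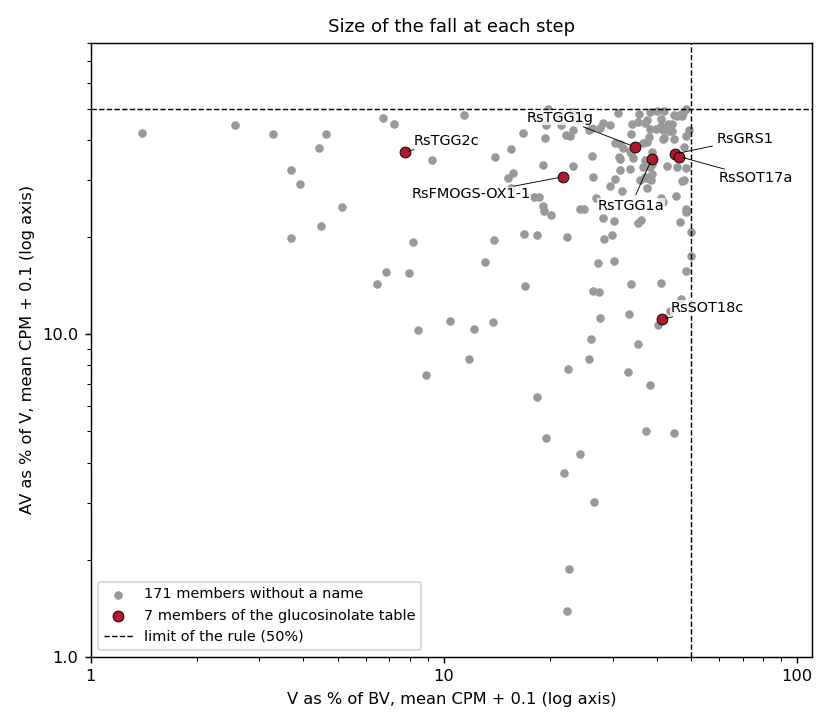
V as a percentage of BV against AV as a percentage of V for each of the 178 members, both from mean CPM + 0.1 and on log axes, with the 7 named members in red and the limit of the rule (50%) as dashed lines. RsTGG2c stands to the left with the larger fall at the first step, RsSOT18c stands low with the larger fall at the second, and RsGRS1 and RsSOT17a lie near the limit of the first step.

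In 15 members both AV libraries held at most 3 reads, and 5 of these had 0 reads in both. With 3 reads in each AV library taken as the limit of detection, the fall of these 15 genes between BV and AV was at least 45.4-fold to at least 230-fold. No member was at or under that limit in all V libraries, but some came close. RSG32394 averaged 0.166 CPM in V and RSG28560 0.209 CPM, each with 0 reads in both AV libraries, so their second step rests on few reads. The lowest count of a member in any BV library was 73 reads. Counting error thus weighs mostly on the AV levels of the weaker members, and on the V levels of members such as these.

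**Figure D3:**
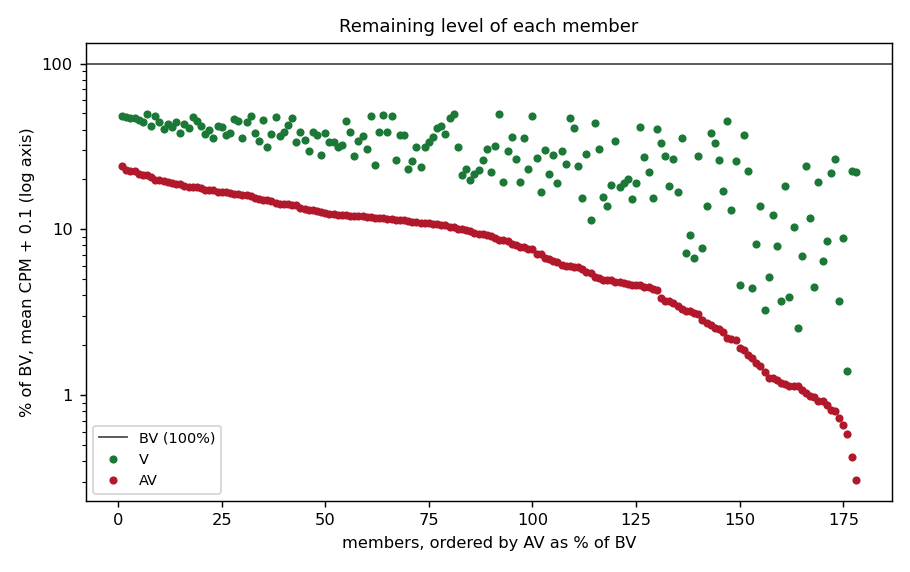
Level of each member in V and AV as a percentage of BV (mean CPM + 0.1, log axis), with the 178 members ordered by the AV value and BV as the line at 100%. V lies above AV in every member, as the rule required, and V is spread widely among the members with the least left in AV, where RSG20804 is the last.

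Summed over the members, BV libraries held 20230, 19788 and 17659 CPM, V libraries 5207, 5127 and 5343 CPM, and AV libraries 1503 and 1461 CPM. The members thus took 1.92% of all gene reads in BV, 0.523% in V and 0.148% in AV. The sum was 3.68-fold lower in V than in BV and 3.53-fold lower in AV than in V, and BV replicate 3 was again the lowest BV library. The 5 members with the most reads made up 36.9% of the BV sum and the 10 with the most 55.8%. The other 168 members summed to 8496 CPM in BV, 2531 CPM in V and 752 CPM in AV.

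All 178 members had V libraries below every BV library, and 173 had AV libraries below every V library, while 5 overlapped at the second step. Over all 32043 genes with enough reads to be tested, 23% lay lower without overlap in V than in BV and 27.4% in AV than in V. All 178 members passed the filter on low counts. In the quasi-likelihood test of edgeR, with adjustment after Benjamini and Hochberg and a threshold of 0.05, 178 members were called lower in V than in BV (background 19.3% of genes), 174 lower in AV than in V (background 16.9%) and 174 at both steps (background 2.01%). Genes called higher made up 19.2% of all tested in V against BV and 14.7% in AV against V. The members' median log2 fold changes were -1.74 (V against BV) and -1.79 (AV against V), and those of all genes tested 0.01 and -0.02. The rule used these same contrasts, so nothing is read from the members' counts.

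At the edge of the rule, the largest ratio of a member at its weaker step was 49.9% and the smallest of a gene left out was 50.0%. Within 45 to 50% lay 41 members, and within 50 to 55% lay 71 genes that were not members. The lowest BV level admitted, 0.1 included, was 5.30, and the highest that was left out for its level was 4.90. Of the named glucosinolate genes, RsCYP79F1 was nearest outside.

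Spread between BV replicates was similar in members and in other genes. The coefficient of variation in BV had a median of 14.8% over the members, against 15.7% over 19986 other tested genes with at least 5 in BV. In V, the medians were 17.5% in the members and 12.2% in the other genes. The rule chose members that are low in V (median 5.70 CPM), whereas the other genes were chosen on BV only. Spread in V was thus not compared at matched levels. BV replicate 3 was the lowest BV library in 83 members, BV replicate 2 in 58 and BV replicate 1 in 37. In 45 members (25.3%) it was under 75% of the mean of the other BV libraries, as it was in 19.3% of the other genes. RsGRS1 and the 3 myrosinases were among these 45, whereas in RsSOT18c and RsFMOGS-OX1-1 BV replicate 3 was the highest. All 7 named members still met the rule when BV replicate 3 was left out.

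The other 87 genes of the glucosinolate list show what surrounded the members, and 80 of them had enough reads to be tested. By the edgeR test, 21 fell and 21 rose in V relative to BV (background 19.3% and 19.2%), and 38 fell and 11 rose in AV relative to V (background 16.9% and 14.7%). The count of 11 rested in part on single libraries. It was 7 without V replicate 1, 7 without AV replicate 1 and 6 without AV replicate 2. Their median log2 fold change was 0.05 in V against BV and -0.69 in AV against V, beside 0.01 and -0.02 for all genes tested. The members had been taken out of this list by their values, so these counts describe the remainder only. Lower at both steps were 7, namely RsBAT5, which the rule had set aside, RsIPMDH1, RsCYP79F1, RsSOT18a, RsSOT18d, RsSOT18f and RsCYP81F2d. RsCYP81F2d lost its call in AV against V in 4 alternatives, among them the replicate block (edgeR adjusted p = 0.0563) and leaving out V replicate 3, AV replicate 1 or AV replicate 2 (adjusted p up to 0.243). A further 12 were higher in V than in BV and lower in AV than in V, 4 were lower and then higher, and 2 were higher at both steps.

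By step of the pathway, most of the other aliphatic core and elongation genes were lower in AV than in V. Among genes of aliphatic core formation, 7 of 17 tested fell and 1 rose in V relative to BV, and 14 fell and 1 rose in AV relative to V. Among genes of side-chain elongation, 3 of 10 fell in V relative to BV and 7 fell in AV relative to V. Of the 5 aliphatic transcription factor genes, the MYB28 and MYB29 homologs that switch on this pathway in Arabidopsis, 4 rose in V relative to BV and 4 fell in AV relative to V. Among the 12 other breakdown genes, 5 fell and 5 rose in V relative to BV, and 3 fell and 3 rose in AV relative to V. Among genes of indolic core formation, 1 of 11 fell and 2 rose in V relative to BV, and 2 fell in AV relative to V. Differences between these lists were not tested.

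RsCYP79F1, whose Arabidopsis counterpart makes the first core intermediate from lengthened methionine, missed the rule at the first step. It had 102, 137 and 89.9 CPM in BV, 57.7, 47.6 and 61.3 CPM in V, and 15.2 and 18.3 CPM in AV. The time points did not overlap, V was 50.7% of BV, and AV was 30.3% of V. In edgeR its log2 fold change was -1.01 (SE 0.17, adjusted p = 0.000255) in V against BV and -1.78 (SE 0.21, adjusted p = 8.45e-06) in AV against V. It met the rule with TMM-scaled CPM, and also when any of 4 libraries (BV replicates 1 and 3, V replicates 1 and 3) was left out. RsIPMDH1, a dehydrogenase of side-chain elongation, was at 57.7% of BV in V and at 24.8% of V in AV, with log2 fold changes of -0.82 (adjusted p = 0.000988) and -2.08 (adjusted p = 1.27e-06) in edgeR.

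Myrosinase homologs that met the rule had been taken out as members, so the values of the other homologs describe the remainder only. Of the 8 other TGG1 and TGG2 genes, 5 fell and 2 rose in V relative to BV by edgeR, 3 fell in AV relative to V, and 0 of them were lower at both steps, a count that was also 0 at an unadjusted p under 0.05 and by DESeq2. RsTGG1c fell to 81.2 ± 6.07 CPM in V, against 1207 ± 309 CPM in BV (SD, n = 3 each). On the log2 scale this was -3.92 (SE 0.20, edgeR adjusted p = 2.18e-09). Its AV libraries averaged 99.1 CPM, and AV against V gave 0.23 on the log2 scale (SE 0.20, edgeR adjusted p = 0.419). RsTGG1b had its fall at the second step, with 0.18 on the log2 scale in V against BV (edgeR adjusted p = 0.529) and -4.10 in AV against V (edgeR adjusted p = 1.09e-07). RsTGG1e and RsTGG1f rose in V, by 1.21 and 2.05 on the log2 scale (edgeR adjusted p = 8.55e-06 and 4.14e-06), and were lower in AV than in V, with log2 fold changes of -2.86 and -4.54 (edgeR adjusted p = 1.96e-08 and 4.65e-08).

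Of the 6 other SOT17 and SOT18 genes tested, 4 fell in V relative to BV by edgeR and 5 fell in AV relative to V, 3 of them at both steps. Several of the 6 had few reads. RsSOT18i, RsSOT17b, RsSOT18d and RsSOT18b had BV means of 0.866, 1.42, 2.16 and 2.52 CPM, under the 5 asked of members. RsSOT18a and RsSOT18f averaged 57.9 and 115 CPM in BV. Each of the 3 genes lower at both steps lost 1 of its calls under some alternatives. RsSOT18a lost the call in V against BV without BV replicate 1, V replicate 1 or V replicate 3 (edgeR adjusted p between 0.0505 and 0.0635). RsSOT18d lost it in 7 alternatives, with library totals in place of TMM and without BV replicate 1 or 2, any V replicate or AV replicate 1 (edgeR adjusted p between 0.0501 and 0.138). RsSOT18f, the homolog among these with the most reads in BV (not corrected for length), fell by 1.53 on the log2 scale in V (edgeR adjusted p = 2.65e-06), against BV. Its log2 fold change in AV against V was -0.59 (edgeR adjusted p = 0.0219), a call that was lost when V replicate 1, V replicate 3 or either AV library was left out, with adjusted p between 0.0526 and 0.205. The other FMOGS-OX homologs are likewise those left after the member RsFMOGS-OX1-1 was taken out by its falls. Of 4 others tested, 2 fell and 1 rose in V relative to BV by edgeR, and 1 fell and 2 rose in AV relative to V. RsFMOGS-OX1-2, 1 of the 2 that rose in AV (log2 fold change 0.67, edgeR adjusted p = 0.0354), lost that call in 4 alternatives. RsFMOGS-OX2-2 had 37.5, 19.1 and 36.8 CPM on average in BV, V and AV. Its log2 fold change was -1.01 in V against BV (edgeR adjusted p = 0.000209) and 0.90 in AV against V (edgeR adjusted p = 0.00152). RsFMOGS-OX5-1 ran opposite to that, with 1.23 on the log2 scale in V against BV (edgeR adjusted p = 6.43e-05) and -0.92 in AV against V (edgeR adjusted p = 0.00275). The second call was lost without AV replicate 2 (adjusted p = 0.0506).

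**Figure D4:**
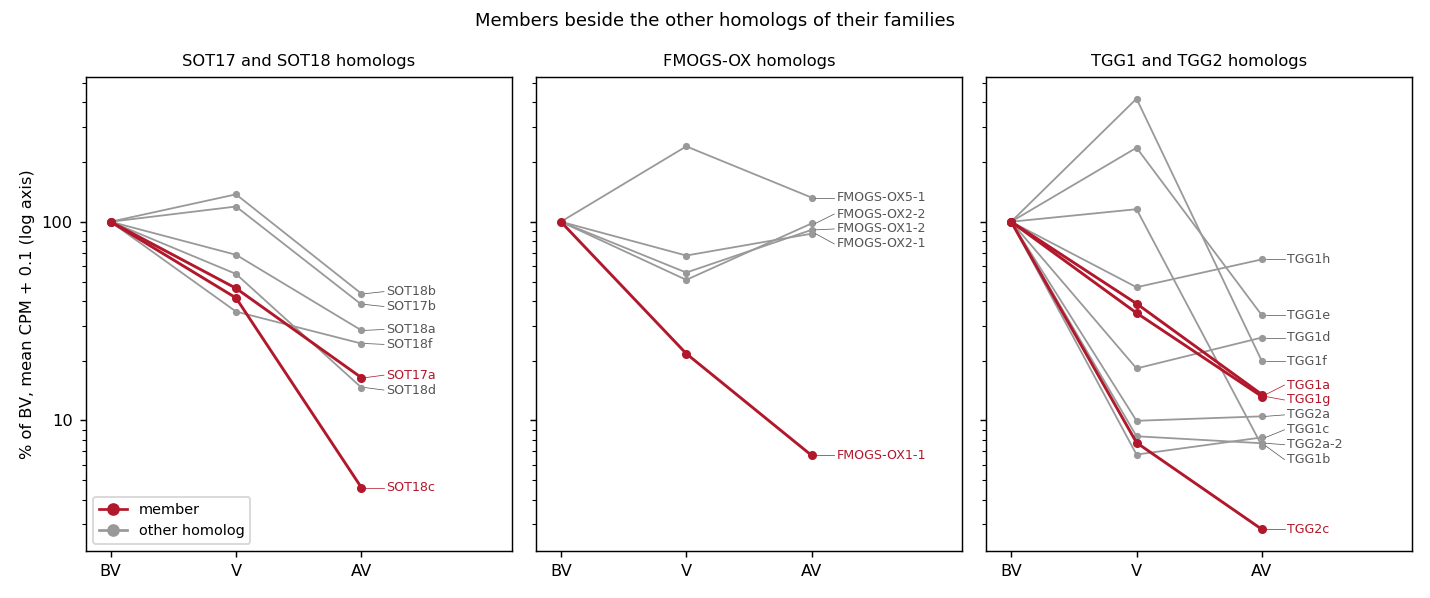
Mean CPM + 0.1 at BV, V and AV as a percentage of BV (log axis) for members (red) and for other homologs with at least 1 CPM in BV (grey) of the sulfotransferase, FMOGS-OX and myrosinase families. The homologs fan out most in the myrosinase panel, where RsTGG1e and RsTGG1f lie above BV in V, RsTGG1c is low in V and stays near that level in AV, and the 3 members fall at each step.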

How the data were processed

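Total RNA of leaf and root was sequenced on an Illumina instrument, and 9 libraries were deposited, 3 for each time point. Per the labels and the study's methods, the authors aligned reads to a radish genome with TopHat2 and counted them per gene with HTSeq. The deposited values are raw read counts per gene, not normalized. Tool versions, the strand setting and the counting mode are not given in the sources used here. The files end with 5 entries for reads without a gene, which held 4.27% to 8.89% of a file's total and were left out.

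CPM used the sum over genes. The 8 libraries (without AV replicate 3) were fitted together in R 4.3.3 with edgeR 4.0.16 (TMM, factors 0.959 to 1.06; filterByExpr; robust glmQLFit and glmQLFTest), with Benjamini-Hochberg adjustment over 32043 genes and a threshold of 0.05. DESeq2 1.42.0, other normalizations, filters, limits of the rule, a replicate block and leaving out each library were the alternatives. Each SE is the absolute edgeR log2 fold change divided by the square root of the F statistic of its test, which itself gives no SE. Folds are ratios of mean CPM. Ratios in the rule, in plots and in the counts of the larger step add 0.1 CPM. The limit of detection was 3 counts, 0.109 to 0.142 CPM in these libraries, and covers counting error only.

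Named are all members in the study's glucosinolate list, genes of that list just outside the rule, homologs of the named members, and of the members without a name the one with the highest BV mean and the one with the largest fall between BV and AV, by the ratio of mean CPM + 0.1. The members and the lists were chosen with earlier results of these data known. The homologs described singly were chosen after their values were seen. None of the radish identifiers matched the RefSeq gene table (0 matches), so no other names were used. Levels in CPM are not corrected for gene length, so an order of genes by reads is one of read share and not of transcript level.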

Additional observations from a re-analysis of the deposited data

How the results depend on the processing

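The number of members depended on the limits of the rule. It was 178 as defined, 108 with 1 CPM added before ratios (all 108 among the 178), 278 with at least 1 CPM in BV, 486 with a fall of at least 1.5 times per step and 59 with a fall of at least 3 times. TMM-scaled CPM gave 202 genes, the 178 among them, and a member sum of 1430 CPM in AV, against 1482 CPM with library sums. With all 3 AV libraries there were 179 genes, 170 of them shared. Leaving out 1 library at a time gave 178 to 192 genes, of which 153 to 173 were shared with the 178.

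When a change of 1 or more on the log2 scale was asked as well, 13 other glucosinolate genes fell in V relative to BV and 6 rose in AV relative to V, against 21 and 11. Leaving out 1 library at a time, the other glucosinolate genes that fell in V relative to BV numbered 17 to 25 and those that rose 17 to 21, and 29 to 39 fell and 6 to 13 rose in AV relative to V. The members called lower ranged between 176 and 178 in V against BV, 148 and 175 in AV against V, and 148 and 174 at both steps. Where an AV library was left out, the lone AV library was assumed to vary like the others.

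Whether the replicate numbers pair the samples could not be decided, since few libraries were compared and AV was not checked. Deviations of BV and V libraries with the same number correlated across genes at 0.05, 0.23 and 0.11, and those with different numbers at -0.19 to 0.15. With the replicate number as a block, 177 members were called lower in V, 177 in AV against V and 176 at both steps, and the other glucosinolate genes gave 23 lower and 22 higher in V against BV and 38 lower and 10 higher in AV against V. DESeq2 called 176, 176 and 175 members, and 21, 21, 39 and 12 of the other genes. No fold change of the members or homologs named changed sign under these alternatives. With 2 AV libraries and single-digit counts in several members there, AV levels are the least certain. Plant age, cold and the light conditions of the cold room cannot be told apart.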
